A study of Mus musculus with 3 samples.

Results

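The genes described here are Adamts1, Adamts4, Adamts5, Adamts9, Adamts2, Adamts12 and Adamtsl1, a list of 7 symbols among the 32285 genes of the deposited feature lists and among the 24 genes whose symbol starts with Adamts. Their transcripts were counted as unique molecular identifiers (UMIs, 1 for each captured transcript) in cells dissociated from the whole mouse aorta, between the arch and the iliac bifurcation. The mice were males whose own Apoe gene had been replaced, at its locus, by human APOE2, APOE3 or APOE4 on a C57BL/6J background, and all groups ate a Western diet with 42% fat and 0.2% cholesterol for 16 weeks from the age of 12 weeks. Each genotype was 1 library, made from the pooled cells of several mice (6 for APOE2, 5 for APOE3 and 7 for APOE4). No group on another diet and no mice with the mouse gene were measured. With 1 library for each genotype there is no replicate and no test between genotypes. Every interval given is a 95% interval that covers counting error only, and a difference between libraries compares those pools of mice.

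ADAMTS proteases (a disintegrin and metalloproteinase with thrombospondin motifs) are secreted zinc enzymes that cut the extracellular matrix, and tissue inhibitors of metalloproteinases, TIMP3 above all, hold them in check. ADAMTS1, ADAMTS4, ADAMTS5 and ADAMTS9 cut versican and aggrecan, the large proteoglycans that take up water in the artery wall, whereas ADAMTS2 removes the N-terminal propeptide of fibrillar procollagens. ADAMTS12 can cut cartilage oligomeric matrix protein, and ADAMTSL1 belongs to the ADAMTS-like proteins, which carry the same ancillary domains but no protease domain.

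All 7 are protein-coding genes, given here with their coordinates in GRCm38 (mm10), the build of the deposited counts. Adamts1 (ENSMUSG00000022893, chr16:85793827-85803113) and Adamts5 (ENSMUSG00000022894, chr16:85856173-85901828) are neighbours on the minus strand of chromosome 16, 53059 bases apart, with 0 protein-coding genes between them. Adamts9 (ENSMUSG00000030022, chr6:92772699-92943492) is on the minus strand of chromosome 6. Adamts4 (ENSMUSG00000006403, chr1:171250421-171260637), Adamts2 (ENSMUSG00000036545, chr11:50602084-50807573), Adamts12 (ENSMUSG00000047497, chr15:11064790-11349231) and Adamtsl1 (ENSMUSG00000066113, chr4:85514172-86428385) are on the plus strands of chromosomes 1, 11, 15 and 4. Over all cells Adamts1 had 52000 UMIs, Adamts2 32709, Adamts5 24897, Adamtsl1 22934, Adamts9 13944, Adamts12 2982 and Adamts4 526. Together the 7 genes held 63.7% of the UMIs of the 24 genes.

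Promoters of 4 of the 7 genes (Adamts1, Adamts2, Adamts9 and Adamts12) were in the RefSeq promoter table (GRCm38.p6). The 250 bases before the start of Adamts1 (chr16:85803114-85803363, minus strand) and of Adamts9 (chr6:92943535-92943784, minus strand) are printed 5′ to 3′. These genes were chosen because both were highest in APOE4 in smooth muscle-like cells and higher in cells with more immediate early transcripts. Capitals mark the matches to a TATA box (TATAAA) and to the short cyclic AMP response element (TGACG), both searched on both strands.
Adamts1: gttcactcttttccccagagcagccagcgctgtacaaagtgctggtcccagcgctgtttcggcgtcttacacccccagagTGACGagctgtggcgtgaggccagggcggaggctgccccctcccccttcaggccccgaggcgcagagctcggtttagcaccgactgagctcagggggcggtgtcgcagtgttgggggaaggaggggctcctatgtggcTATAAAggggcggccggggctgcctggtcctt
Adamts9: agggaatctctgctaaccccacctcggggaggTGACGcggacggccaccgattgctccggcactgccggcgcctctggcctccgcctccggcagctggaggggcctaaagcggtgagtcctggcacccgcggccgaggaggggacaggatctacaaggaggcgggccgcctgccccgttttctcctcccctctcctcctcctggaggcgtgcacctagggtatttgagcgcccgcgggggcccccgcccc
In Adamts1 the TATAAA match began 32 bases before the start and the TGACG match 170 bases before it, whereas Adamts9 held no TATAAA and had its TGACG match 218 bases before the start. Windows of 250 bases before to 50 bases after the start were searched for all genes. TATAAA was in 14.2% of 27025 promoters and TGACG in 21.02%. Adamts12 held TGACG 205 bases before its start, and Adamts2 held neither motif. The full element TGACGTCA (1.88% of promoters) and the AP-1 site TGANTCA (7.93%) were in none of the 4 windows. Among 17 of 20 immediate early and dissociation genes with a promoter in the table, TGACG was in 10, TATAAA in 2, TGACGTCA in 2 and TGANTCA in 0. A match is a run of letters, and binding to it was not measured.

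After a filter on genes and mitochondrial UMIs, 26757 of 28506 barcodes were kept (11772, 6737 and 8248 in the APOE2, APOE3 and APOE4 libraries). The median depth of a kept cell was 12047, 17618 and 13521.5 UMIs in these libraries, so levels are given as CPM, the gene's UMIs per 1000000 UMIs of the class or cluster. The libraries shared 14 to 27 cell barcodes in pairs. The features are those of the mouse genome, and the Apoe feature, at 181 to 200.1 CPM in the 3 libraries, does not tell the human alleles apart. Clustering without the Adamts genes gave 23 clusters. Smooth muscle-like cells (7 clusters, 13902 cells) and fibroblast-like cells (C2 and C20, 3100 cells) were the classes compared between libraries. Of their defining markers, Acta2 stood at 25147 CPM in smooth muscle-like and 3032 CPM in fibroblast-like cells. Dcn stood at 30.3 CPM in smooth muscle-like and 13942 CPM in fibroblast-like cells. Other fibroblast markers were less far apart, such as Col1a2 at 738 CPM in smooth muscle-like and 2392 CPM in fibroblast-like cells. Myh11, a smooth muscle transcript, was also found at 266 CPM in fibroblast-like and 577 CPM in macrophage-like cells, against 2412 CPM in smooth muscle-like cells, and whether this was stray RNA or doublets was not tested. Of 8 unnamed clusters, C4, C5 and C7 (4625 cells) met the marker and depth limits for smooth muscle but had more markers of another cell type than of smooth muscle among their 10 leading genes. C9, C12, C14 and C15 did not meet those limits, although they too kept at least 8 of 10 smooth muscle markers. C9 and C12 had a depth below the limit, at 0.268 and 0.161 of their libraries' median, and C12, C14 and C15 had 3 or more raised markers of another cell type. The 7 smooth muscle-like clusters with C4, C5 and C7 are called the 10 smooth muscle clusters in what follows.

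The members differed in the cell class that held them at the highest level. Adamts1 was the member with the most UMIs in smooth muscle-like cells, and Adamts2, Adamts5, Adamts12, Adamts4 and Adamtsl1 were at higher CPM in fibroblast-like than in smooth muscle-like cells. Over the 3 libraries together Adamts9 and Adamts1 were at their highest CPM in endothelial-like cells. Adamts4 was too, from 11 UMIs and with an interval overlapping that of fibroblast-like cells. Adamtsl1 had a further site of high expression in 1 small smooth muscle-like cluster. The plot of levels by cell class gives all members in 4 classes.

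**Figure D1:**
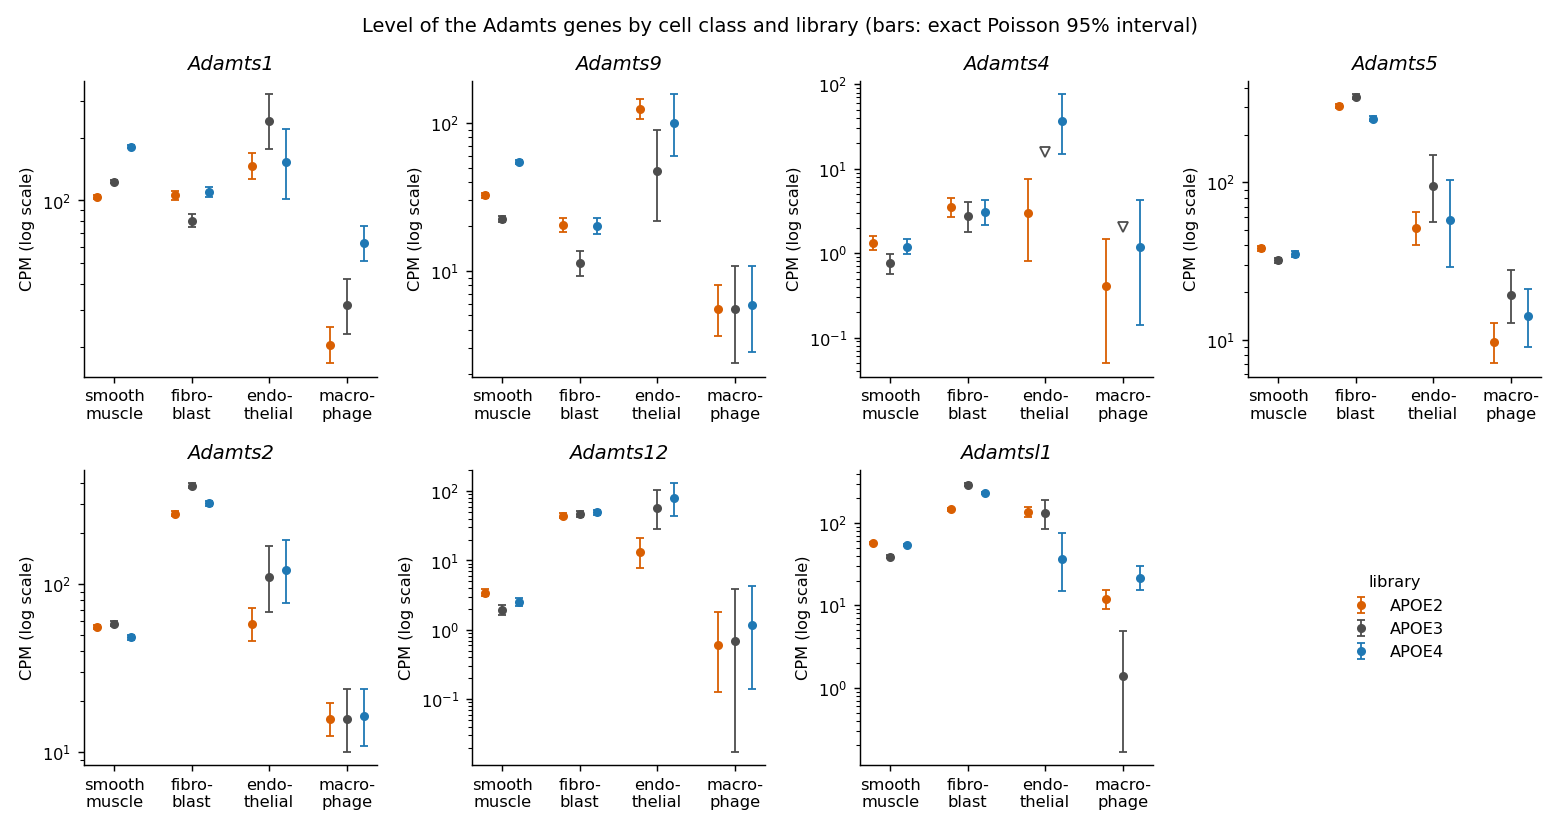
Level of each gene in 4 cell classes and 3 libraries, in CPM on a log axis. Points are summed UMIs of a library and class, bars the exact Poisson 95% interval, and open triangles the limit of 3 counts where no UMI was found. In smooth muscle-like cells Adamts1 and Adamts9 were highest in the APOE4 library (181 and 54.7 CPM), and Adamts2 and Adamts5 were highest in fibroblast-like cells in each library.

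Adamts1, a proteoglycan-cutting protease, was present at 104, 123 and 181 CPM in the smooth muscle-like cells of the APOE2, APOE3 and APOE4 libraries. In fibroblast-like cells it was present at 106, 80.1 and 109 CPM. The class order over the 3 libraries together was endothelial-like (158 CPM, 139.6 to 178), smooth muscle-like (135 CPM, 134 to 137) and fibroblast-like (101 CPM, 97.4 to 104). By library this order held, with intervals apart, in APOE3 alone. In APOE2 the smooth muscle-like and fibroblast-like intervals overlapped, and in APOE4 smooth muscle-like cells were highest, with an interval inside that of the endothelial-like cells (102 to 219). Endothelial-like cells were few (154, 28 and 36 in the 3 libraries), and their values of 147, 241 and 153 CPM rested on 199, 46 and 29 UMIs. Smooth muscle-like cells held 64.3% of the Adamts1 UMIs.

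Among clusters Adamts1 was highest over the 3 libraries together in C0, the smooth muscle-like cluster led by stress and immediate early genes such as Dnajb1, Atf3 and Socs3, at 147, 171 and 230 CPM in APOE2, APOE3 and APOE4. C1 and C10 were the lowest smooth muscle-like clusters, at 81.1 and 73.4 CPM over the 3 libraries. In lymphocyte-, neutrophil-, erythroid- and macrophage-like cells Adamts1 stood at 10.96 to 31.6 CPM. In macrophage-like cells it amounted to 54.5 UMIs per 1000 Myh11 UMIs, close to the 56.0 of smooth muscle-like cells themselves. The 379 per 1000 in fibroblast-like cells and 451 per 1000 in endothelial-like cells lay far above that ratio. When each cell was thinned to 1000 UMIs, 8.84% (8.13 to 9.60), 9.40% (8.44 to 10.4) and 15.9% (14.9 to 17.0) of smooth muscle-like cells in APOE2, APOE3 and APOE4 had an Adamts1 UMI. The share in B lymphocyte-like cells, which serve as background, was 1.56%, from cells with a median of 3846 UMIs against 15918.5 in smooth muscle-like cells. Thinning left out 51, 17 and 46 shallower smooth muscle-like cells, and unthinned shares were 52.7%, 64.1% and 73.0%.

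Adamts9, also a versican- and aggrecan-cutting protease, was highest in endothelial-like cells at 114 CPM (98.7 to 131) over the 3 libraries. Their values by library were 125 CPM from 170 UMIs in APOE2, 47.2 CPM from 9 UMIs in APOE3 and 99.96 CPM from 19 UMIs in APOE4. The APOE3 value came from 1 of 28 cells, and in APOE2 43 of 154 cells had a UMI, so most endothelial-like cells gave none. In smooth muscle-like cells Adamts9 was present at 32.4, 22.5 and 54.7 CPM in APOE2, APOE3 and APOE4, and in fibroblast-like cells at 20.6, 11.2 and 20.1 CPM. Within the fibroblast-like cells C20 had 8.28 CPM from 23 UMIs and C2 18.9 CPM. Over the 3 libraries together the next clusters after the endothelial-like cells were the unnamed C7, of low depth, at 75.9 CPM and C0 at 55.1 CPM. In APOE3 alone C7 was above the endothelial-like cells, with overlapping intervals.

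Adamts4, a protease best known for cutting aggrecan, was rare in every class. Smooth muscle-like cells held it at 1.32, 0.754 and 1.19 CPM in APOE2, APOE3 and APOE4, from 122, 56 and 97 UMIs. Fibroblast-like cells held it at 3.51, 2.72 and 3.10 CPM from 57, 25 and 36 UMIs. Over the 3 libraries together the highest cluster was C13 at 9.15 CPM (7.51 to 11.04), an interval that overlapped that of the endothelial-like cells at 6.33 CPM (3.16 to 11.3) from 11 UMIs. In the APOE4 library the endothelial-like cells were higher, at 36.8 CPM (14.8 to 75.9) from 7 UMIs in 36 cells. C13 had 9.84, 9.01 and 8.54 CPM in APOE2, APOE3 and APOE4, and 90 of 601 cells had a UMI. These 601 cells, 2.25% of all, held 20.7% of the Adamts4 UMIs.

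Adamts5, a strong aggrecan- and versican-cutting protease, was at its highest class level in fibroblast-like cells. These cells held 44.8% of its UMIs, and smooth muscle-like cells held 35.0%. Its level was 307, 351 and 254 CPM in fibroblast-like cells (APOE2, APOE3 and APOE4) and 38.1, 31.9 and 35.0 CPM in smooth muscle-like cells. The smaller fibroblast-like cluster, C20, led by Pla1a, Dact2, Dpp4 and Cd55, held it at 878, 1510.5 and 1126 CPM. In the larger cluster, C2, led by the complement gene C7 and by Cygb, Inmt and Svep1, it stood at 272, 216 and 181 CPM. C20 was thus 5.10 times C2 over the 3 libraries, and the intervals of the 2 clusters did not overlap. In C20 155 of 165 cells had an Adamts5 UMI, with a median of 15 UMIs per cell, and 115 cells had 10 or more. C20 was 0.617% of all cells and held 13.1% of the Adamts5 UMIs.

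Adamts2, the procollagen N-proteinase, followed the fibroblast-like cells as well. It was present at 262, 385 and 303 CPM in the fibroblast-like cells of APOE2, APOE3 and APOE4 and at 55.4, 58.0 and 48.0 CPM in smooth muscle-like cells. In contrast to Adamts5 it was higher in C2 (313 CPM over the 3 libraries) than in C20 (215 CPM). After thinning, 23.1%, 33.2% and 28.1% of fibroblast-like cells had an Adamts2 UMI, against 4.79%, 5.41% and 4.84% of smooth muscle-like cells. Adamts12 was present at 44.3, 46.7 and 49.9 CPM in fibroblast-like cells and at 3.44, 1.95 and 2.54 CPM in smooth muscle-like cells. Its highest cluster was C20, at 71.1, 96.6 and 114 CPM, and C2 stood at 42.7, 41.0 and 44.6 CPM. Endothelial-like cells had 25.3 CPM over the 3 libraries, from 44 UMIs.

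Adamtsl1, the member without a protease domain, was concentrated in C13. This smooth muscle-like cluster had 601 cells (265, 122 and 214 in APOE2, APOE3 and APOE4) and was led by Fgf12, Msx2, Dlx6, Tfap2b and Dlx5. From a list of arch and outflow genes, Msx1, Dlx5, Dlx6 and Prrx1 were raised in it, and Hand2, Tbx20, Gata4 and Foxc1 were not. Msx1, Dlx5 and Prrx1 were also raised in C2, Prrx1 in C20, and Dlx5 and Dlx6 in endothelial-like cells and the unnamed C17. The pericyte markers Rgs5 and Kcnj8 were raised in C13 too, fewer than the 3 that would refuse its name. Position along the aorta was not recorded for any cell. In C13 Adamtsl1 stood at 1080.2, 1104 and 897 CPM, and 564 of 601 cells had a UMI, with a median of 13. C13 held 52.6% of all Adamtsl1 UMIs and 65.7% of the 559 cells with 10 or more of them. The other 6 smooth muscle-like clusters had 0.975 to 3.54 CPM. Fibroblast-like cells held most of the rest, with 140 to 292 CPM in C2 and 259 to 422 CPM in C20 by library. The class value of 50.7 CPM for smooth muscle-like cells is therefore mostly the value of C13.

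**Figure D2:**
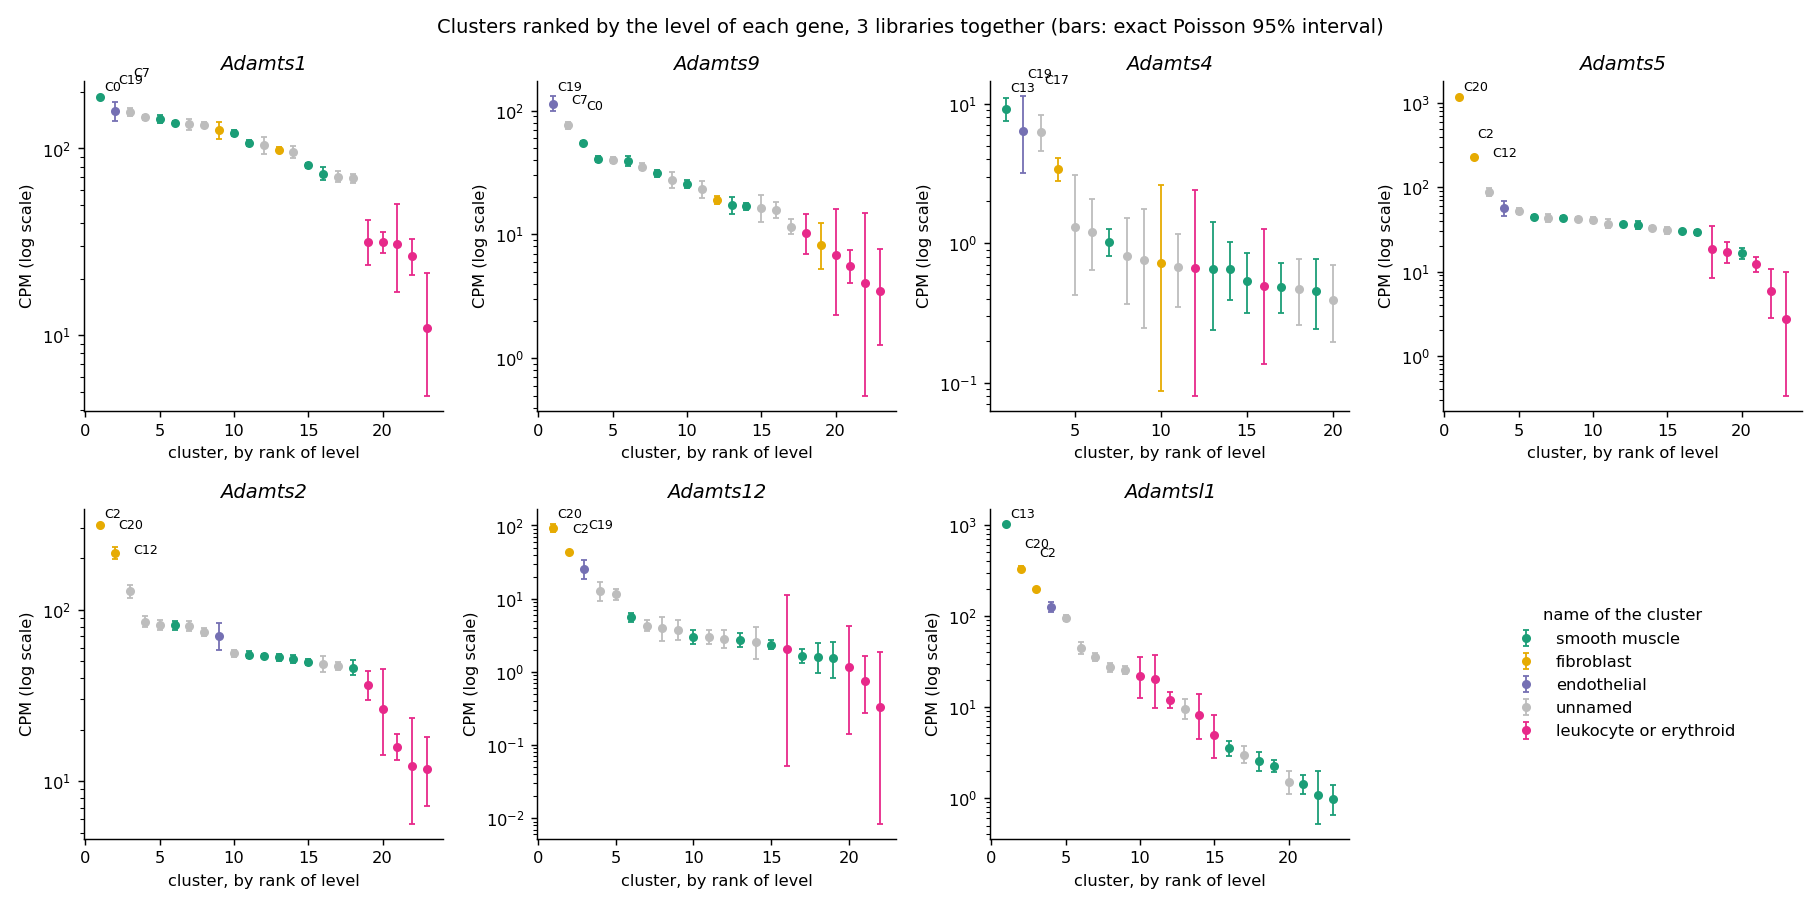
The 23 clusters ranked by the level of each gene over the 3 libraries together, in CPM on a log axis, with exact Poisson 95% intervals. Clusters with no UMI of a gene are not drawn, colours give the name of the cluster, and the 3 highest clusters are labelled. Adamts5 went from 1175 CPM in C20 to 230.3 CPM in C2, and Adamtsl1 from 1013 CPM in C13 to 331 CPM in C20.

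The comparison between genotypes asked whether the replaced APOE allele went with another level of these genes within a cell class. A ratio was counted as past the fold when it was at least 1.5 times in either direction with an interval leaving out 0 on the log2 scale, among genes with at least 50 UMIs in both libraries together. The APOE2 to APOE3 and APOE4 to APOE3 ratios share the APOE3 library, so their values are given side by side and are not set against each other. In smooth muscle-like cells 2 of 7 members were past the fold in APOE2 to APOE3 (Adamts4 and Adamts12, both upward), against 10.9% of 14373 genes tested in either direction. In APOE4 to APOE3 2 of 7 (Adamts9 and Adamts4, both upward) were past it, against 9.98% of 14222 genes. In APOE4 to APOE2 2 of 7 (Adamts1 and Adamts9, both upward) were past it, against 16.0% of 14610 genes. The members' median log2 ratio was 0.53, 0.46 and -0.12 in these comparisons, beside 0.04, -0.08 and -0.12 over all genes tested. A scaling to that last median raises every APOE4 to APOE2 ratio in these cells by 0.12. The members' median of 0.46 in APOE4 to APOE3 was the ratio of Adamtsl1, which within C13 was -0.30.

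In fibroblast-like cells 2 of 7 members were past the fold in APOE2 to APOE3 (Adamts9 upward and Adamtsl1 downward), against 9.36% of 12355 genes. In APOE4 to APOE3 1 of 7 (Adamts9, upward) was past it, against 9.02% of 12012 genes, and in APOE4 to APOE2 1 of 7 (Adamtsl1, upward), against 12.5% of 12569 genes. The members' medians were -0.08, 0.10 and 0.04, beside -0.01, -0.10 and -0.07 over all genes tested, so scaling to the median gene raises APOE4 to APOE3 by 0.10. With lists of 7, counts of 1 or 2 are not read as more than these background shares.

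**Figure D3:**
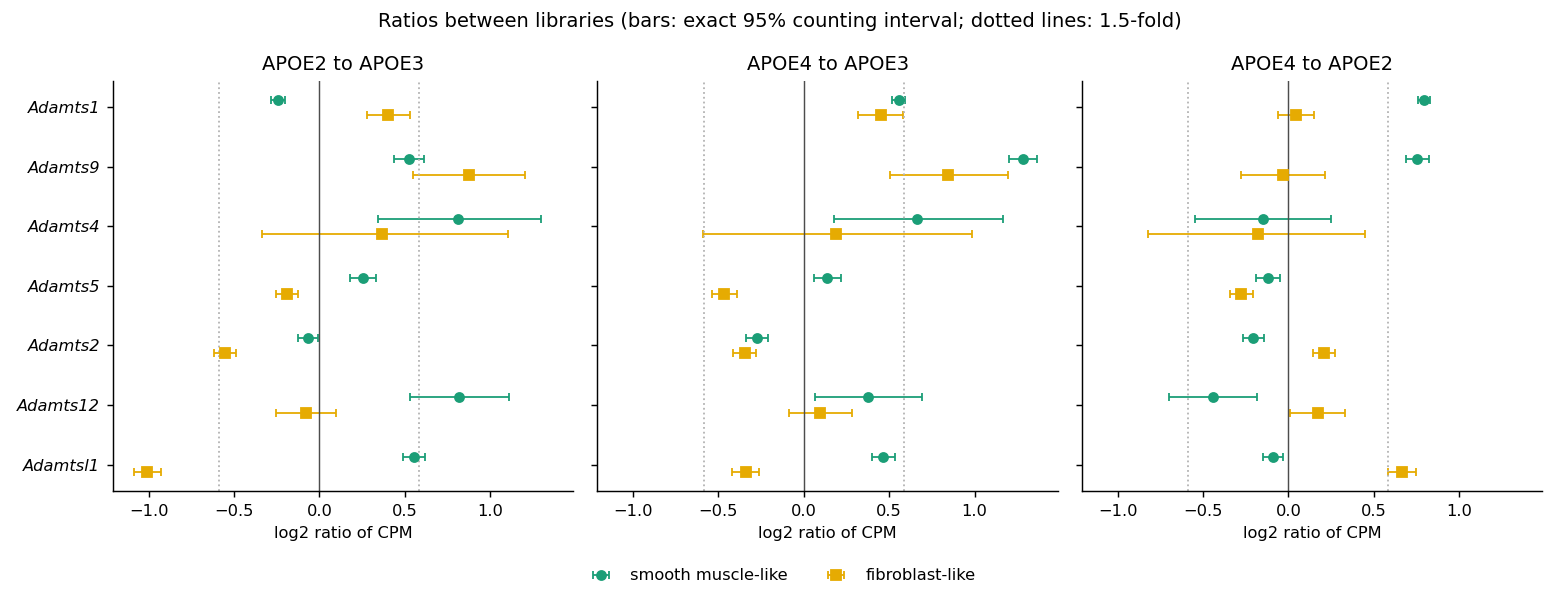
Log2 ratios of CPM between libraries for each gene in smooth muscle-like (circles) and fibroblast-like (squares) cells, with exact 95% counting intervals and dotted lines at 1.5-fold. Adamts9 in smooth muscle-like cells reached 1.28 in APOE4 to APOE3, and Adamtsl1 in fibroblast-like cells -1.01 in APOE2 to APOE3.

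Adamts9 had the largest ratio of the members in smooth muscle-like cells. Its 54.7 CPM in the APOE4 library was above the 32.4 CPM of APOE2 and the 22.5 CPM of APOE3, and the 3 intervals did not overlap. The log2 ratio was 1.28 (1.20 to 1.37) for APOE4 to APOE3, 0.76 (0.69 to 0.82) for APOE4 to APOE2 and 0.53 (0.44 to 0.61) for APOE2 to APOE3. The high APOE4 value was found across clusters, with C0 making up 11.6% of APOE2, 14.96% of APOE3 and 21.3% of APOE4 cells. The share of immediate early transcripts, given below, was likewise highest in APOE4 in the 10 smooth muscle clusters except C7. Adamts9 was highest in the APOE4 library in all of the 10 smooth muscle clusters, named or not. Outside these, C9 had 38.7, 9.22 and 35.7 CPM in APOE2, APOE3 and APOE4, with overlapping intervals for APOE2 and APOE4. C12 likewise had 18.0, 10.1 and 19.3 CPM, with overlapping intervals. Among the 10, APOE4 to APOE3 was past the fold in 9 of the 9 with enough UMIs, with log2 ratios of 0.69 in C7 to 1.83 in C5. Over all genes tested, 6.50% (C1) to 15.3% (C13) were past the fold in this comparison in these 10 clusters. The clusters are parts of the same 3 libraries and do not repeat the comparison. In C3 the Adamts9 values were 38.6, 19.8 and 67.9 CPM in APOE2, APOE3 and APOE4, and in C1, a low cluster, 12.8, 12.1 and 26.2 CPM.

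Adamts1 showed the same highest library in smooth muscle-like cells but not the same lowest. Its 181 CPM in APOE4 exceeded 123 CPM in APOE3 and 104 CPM in APOE2. The log2 ratio was 0.55 (0.52 to 0.59) for APOE4 to APOE3, just under the fold (0.64 and past it when scaled to the median gene), 0.79 (0.76 to 0.83) for APOE4 to APOE2 and -0.24 (-0.28 to -0.20) for APOE2 to APOE3. It was also highest in APOE4 in all of the 10 smooth muscle clusters. For APOE4 to APOE3 the interval lay above 0 in 7 of 7 smooth muscle-like clusters, from 0.43 in C0 to 0.72 in C3, with 3 past the fold. Here too the clusters are parts of the same libraries, and the shares of all genes are those given for Adamts9. In C5, led by Rgs5 and Hox genes, the Adamts1 values were 114, 124 and 218 CPM. C10 was the weakest case, with 78.05 CPM in APOE2 and 81.3 CPM in APOE4 and a log2 ratio of 0.06.

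**Figure D4:**
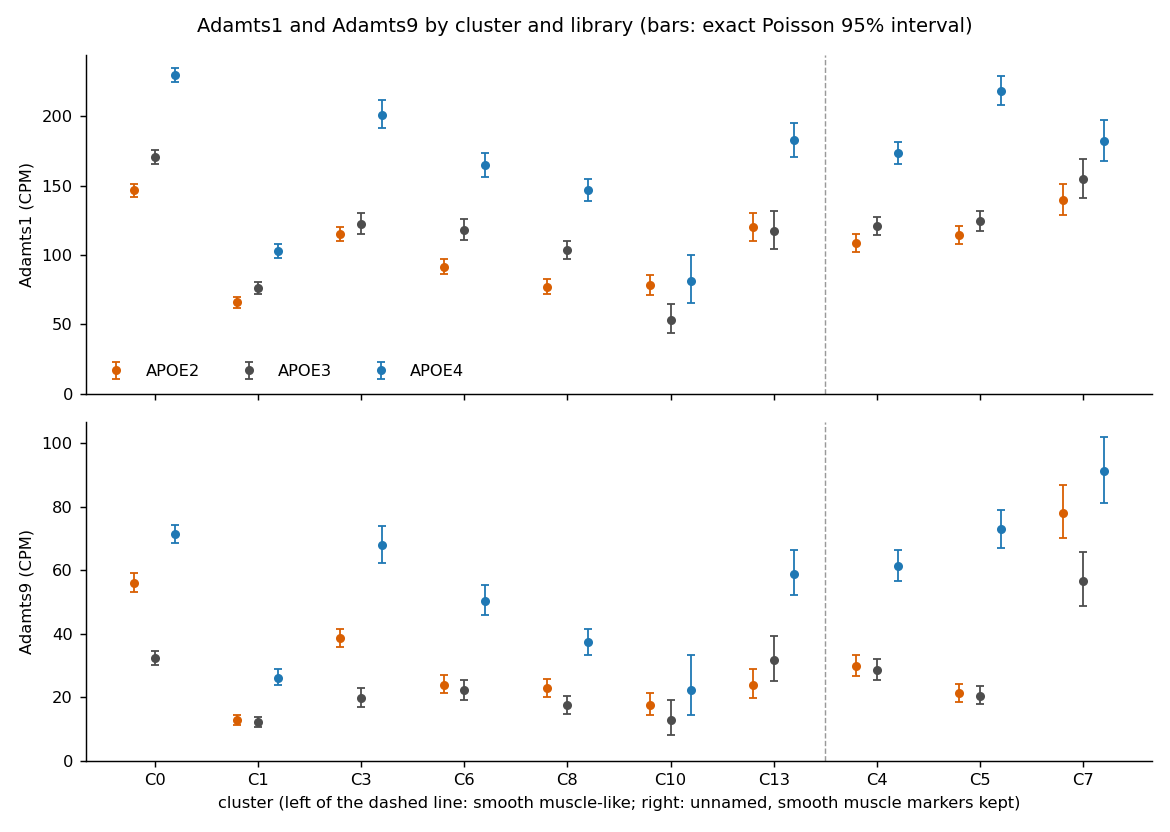
Adamts1 (top) and Adamts9 (bottom) in the 10 smooth muscle clusters (at least 8 of 10 markers kept, fewer than 3 raised markers of another cell type, and enough depth), in CPM by library with exact Poisson 95% intervals. The dashed line parts 7 smooth muscle-like clusters from 3 unnamed ones. The APOE4 point was highest in these 10 clusters for both genes, with overlapping intervals in some, such as Adamts1 in C10.

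Immediate early genes were also highest in the APOE4 library in smooth muscle-like cells. Their order of APOE2 and APOE3 was that of Adamts1 and the reverse of that of Adamts9. A list of 20 immediate early and dissociation genes, among them Fos, Junb and Egr1, which are transcribed within minutes of a stimulus and also during enzymatic dissociation, took 2.05%, 2.50% and 3.32% of the UMIs of smooth muscle-like cells in APOE2, APOE3 and APOE4. In fibroblast-like cells the shares were 1.21%, 1.27% and 2.23%, whereas the Adamts9 levels of APOE2 and APOE4 were alike there. In smooth muscle-like cells 9 of 20 were past the fold upward in APOE4 to APOE3, 13 of 20 upward in APOE4 to APOE2 and 2 of 20 downward in APOE2 to APOE3. The shares over all genes, in either direction, were 9.98%, 16.0% and 10.9%. In fibroblast-like cells 13 of 20 were past the fold upward in APOE4 to APOE3 and 14 of 20 in APOE4 to APOE2, against 9.02% and 12.5% of all genes. Junb, for example, stood at 704, 835 and 1668 CPM in the smooth muscle-like cells of APOE2, APOE3 and APOE4, and Ier3 at 183, 192 and 547 CPM. The part of dissociation in the Adamts1 and Adamts9 values was not tested.

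Smooth muscle-like cells were also parted at the median share of UMIs on that list (2.15%). This describes levels by list share and is not a test of dissociation. Adamts1 stood at 175 CPM at or over the median and 86.7 CPM under it, and Adamts9 at 50.2 and 20.5 CPM. Each library showed this on its own, with log2 ratios of 0.71, 0.88 and 1.11 for Adamts1 and of 1.25, 0.98 and 1.04 for Adamts9 in APOE2, APOE3 and APOE4. C0 had 4123 of the smooth muscle-like cells and a median share of 4.10%, so the split also set C0 against other clusters. This split was not repeated without C0. The 3 libraries did not contribute evenly, since 3254 of 4526 APOE4 cells were at or over the median against 2244 of 5976 in APOE2 and 1453 of 3400 in APOE3. Under the median, Adamts1 was at 83.2, 87.5 and 95.7 CPM in APOE2, APOE3 and APOE4, and APOE4 to APOE3 came to 0.13 (0.05 to 0.21) on the log2 scale. Under the median, Adamts9 was at 20.9, 15.3 and 30.1 CPM, and APOE4 to APOE3 came to 0.97 (0.80 to 1.14), past the fold. APOE4 to APOE2 was then 0.20 for Adamts1 and 0.53 for Adamts9, neither past the fold. At or over the median, Adamts1 was at 136, 161 and 206 CPM in APOE2, APOE3 and APOE4, and Adamts9 at 49.7, 30.2 and 62.1 CPM. List share was not matched between libraries in either part. It was 1.17%, 1.07% and 1.25% under the median and 3.37%, 4.05% and 3.93% at or over it, in the same order. Without C0, the cluster led by genes of the list, APOE4 to APOE3 was 0.57 for Adamts1 and 1.30 for Adamts9. Within C0 alone, parted at its own median of 4.10%, Adamts9 was lower at or over that median (47.4 CPM) than under it (62.7 CPM). This held in APOE3 (26.1 against 40.3 CPM) and APOE4 (58.0 against 90.5 CPM), whereas APOE2 had 60.2 against 54.3 CPM. Adamts1 in C0 stood at 195 and 181 CPM. The class values thus do not describe cells within C0. List share was highest in APOE4 in the 10 smooth muscle clusters except C7, for example 1.10%, 1.19% and 1.95% in C1. C7 had 1.58%, 1.17% and 1.42% and the lowest APOE4 to APOE3 ratios of these clusters, 0.24 for Adamts1 and 0.69 for Adamts9. The lowest Adamts1 ratio of APOE4 to APOE2, 0.06, was in C10, where list share was highest in APOE4.

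The other members did not share this split in smooth muscle-like cells. Adamts2 (52.8 CPM at or over the median and 55.0 CPM under it), Adamts5 (36.2 and 34.0 CPM), Adamts4 (1.16 and 1.05 CPM) and Adamts12 (2.51 and 2.93 CPM) differed by less than 1.5-fold, and Adamtsl1 was lower at or over the median (34.7 and 70.0 CPM). By library the Adamtsl1 log2 ratio of this split was -1.08, -3.33 and -0.34 in APOE2, APOE3 and APOE4. C13, which holds nearly all Adamtsl1 of the class, had 1.99% of its UMIs on the list. Its share was 1.38%, 1.11% and 3.07% in APOE2, APOE3 and APOE4, so its cells fell unevenly into the 2 parts by library. In fibroblast-like cells Adamts9 stood at 27.3 CPM at or over the median and 7.33 CPM under it, the widest split among the members, and Adamts1 at 121 and 76.6 CPM. Adamts2, Adamts5 and Adamts12 were lower at or over the median there, with log2 ratios of -0.35, -0.58 and -0.39.

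**Figure D5:**
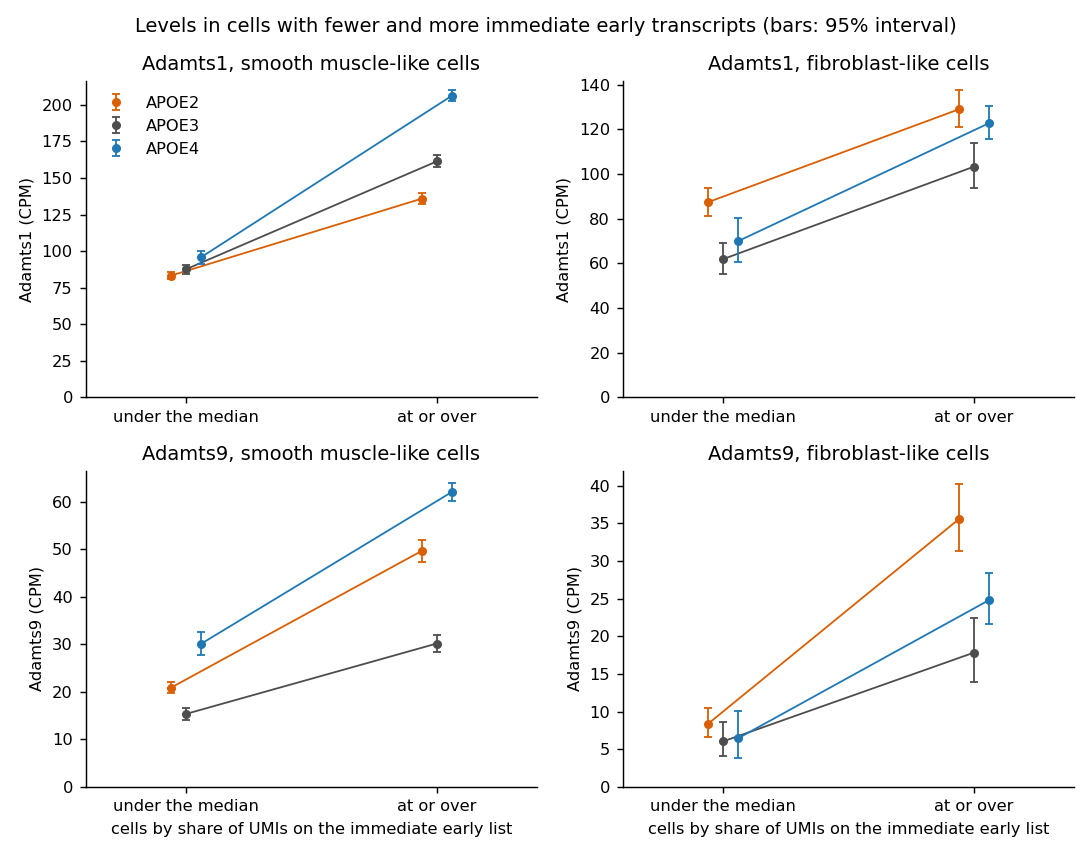
Adamts1 (top) and Adamts9 (bottom) in CPM in cells under and at or over the median share of UMIs on the immediate early list, by library, for smooth muscle-like (left) and fibroblast-like (right) cells, with exact Poisson 95% intervals. Under the median the 3 libraries were within 83.2 to 95.7 CPM for Adamts1 in smooth muscle-like cells, and at 15.3 to 30.1 CPM for Adamts9. At or over it they were at 136 to 206 CPM for Adamts1 and 30.2 to 62.1 CPM for Adamts9.

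In fibroblast-like cells Adamts9 stood at 11.2 CPM in APOE3, below 20.6 CPM in APOE2 and 20.1 CPM in APOE4. The log2 ratio was 0.87 (0.55 to 1.21) for APOE2 to APOE3, 0.84 (0.50 to 1.19) for APOE4 to APOE3 and -0.03 (-0.28 to 0.22) for APOE4 to APOE2, from 103 UMIs in APOE3. APOE3 was thus the low library here, whereas in smooth muscle-like cells APOE4 was also above APOE2. In the cells under the immediate early median both ratios to APOE3 missed the fold, at 0.47 (-0.15 to 1.13) and 0.10 (-0.81 to 0.97). Adamts1 had log2 ratios of 0.40 (0.28 to 0.53) for APOE2 to APOE3 and 0.45 (0.32 to 0.58) for APOE4 to APOE3, both under the fold.

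Adamtsl1 was lowest in the APOE2 library in fibroblast-like cells. Its 146 CPM there compared with 294 CPM for APOE3 and 232 CPM for APOE4, with intervals that did not overlap. The log2 ratio was -1.01 (-1.09 to -0.93) for APOE2 to APOE3 and 0.67 (0.59 to 0.75) for APOE4 to APOE2, both past the fold, and -0.34 (-0.42 to -0.26) for APOE4 to APOE3. C2 alone, with 140, 292 and 216 CPM, gave -1.06, 0.63 and -0.43. In C20 the highest library was APOE4, at 422 CPM against 259 and 315 CPM in APOE2 and APOE3. When cells were assigned to classes one by one from their own markers, APOE2 to APOE3 was -0.30 and APOE4 to APOE2 0.23, neither past the fold.

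In smooth muscle-like cells Adamtsl1 stood at 57.4, 39.1 and 53.9 CPM in APOE2, APOE3 and APOE4, with log2 ratios under the fold. C13 was 2.25% of all APOE2 cells, 1.81% of APOE3 cells and 2.59% of APOE4 cells. Within C13 the levels of APOE2, APOE3 and APOE4 were 1080.2, 1104 and 897 CPM, so APOE3 was not the low library there, and APOE4 to APOE3 was -0.30 (-0.37 to -0.23). Outside C13 the gene had few UMIs, and APOE2 to APOE3 was past the fold upward in C0 and C8, at 2.48 against 0.978 CPM and 5.21 against 0.619 CPM, from 25 and 6 APOE3 UMIs.

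Adamts5 and Adamts2 moved less than 1.5-fold between libraries in fibroblast-like cells. Adamts2 was lowest in APOE2, at 262 CPM against 385 CPM in APOE3, a log2 ratio of -0.55 (-0.62 to -0.49). In C2 alone that ratio was -0.59 (-0.66 to -0.52), past the fold. Adamts5 was lowest in APOE4, with a log2 ratio of -0.47 (-0.54 to -0.39) to APOE3. Its 2 clusters went opposite ways: in C2 APOE2 was the highest library (272 CPM against 216 in APOE3 and 181 in APOE4), and in C20 APOE2 was the lowest (878 CPM against 1510.5 and 1126). The median C20 cell had 10.5, 20.5 and 14 Adamts5 UMIs in APOE2, APOE3 and APOE4, and all 50 APOE3 cells had at least 1. C20 had 58, 50 and 57 cells in these libraries.

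In smooth muscle-like cells Adamts2 was lowest in APOE4, at 48.0 CPM against 55.4 and 58.0 CPM in APOE2 and APOE3. The interval of APOE4 to APOE3 lay below 0 in 6 of 7 smooth muscle-like clusters, from -0.49 in C1 to -0.21 in C0, and none was past the fold. These clusters share the same libraries. Adamts5 stood at 38.1, 31.9 and 35.0 CPM with all log2 ratios between -0.12 and 0.26. Adamts12 had 317, 145 and 206 UMIs and a log2 ratio of 0.82 (0.53 to 1.11) for APOE2 to APOE3. Adamts4 had log2 ratios of 0.81 (0.34 to 1.30) for APOE2 to APOE3 and 0.66 (0.17 to 1.16) for APOE4 to APOE3. Neither passed the fold in the cells under the immediate early median or when each cell's CPM was averaged. In C13 the 3 libraries had overlapping intervals.

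The genes around these proteases were taken from lists of the family, its substrates and its inhibitors. Over all genes tested in smooth muscle-like cells, 10.9%, 9.98% and 16.0% were past the fold in APOE2 to APOE3, APOE4 to APOE3 and APOE4 to APOE2. In fibroblast-like cells the shares were 9.36%, 9.02% and 12.5%. With lists this short, the counts below are not read as more than these shares. Of 18 other family genes, 11 had enough UMIs in smooth muscle-like cells. Adamts3, Adamts6 and Adamts15 were past the fold upward in APOE2 to APOE3 (0.61, 0.69 and 1.33 on the log2 scale) and 0 downward. Adamts3 and Adamts15 were past it upward in APOE4 to APOE3 (1.02 and 0.63), and Adamts6, Adamts10 and Adamts15 downward in APOE4 to APOE2 (-1.05, -0.75 and -0.70). In fibroblast-like cells Adamts3, which like Adamts2 trims procollagens, stood at 13.9, 3.49 and 6.29 CPM in APOE2, APOE3 and APOE4. Past the fold there in APOE2 to APOE3 were Adamts3 and Adamts19 upward and Adamts16, Adamts17 and Adamtsl2 downward. APOE4 to APOE3 had Adamts3 upward and Adamts17 and Adamtsl2 downward. APOE4 to APOE2 had Adamts8 and Adamts17 upward and Adamts3 and Adamts19 downward.

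Versican, the main proteoglycan substrate in the vessel wall, was at 101, 151 and 110.2 CPM (Vcan) in the smooth muscle-like cells of APOE2, APOE3 and APOE4, under the fold in each comparison. In fibroblast-like cells Vcan was at 168, 93.3 and 99.7 CPM, past the fold upward in APOE2 to APOE3 (0.85) and downward in APOE4 to APOE2 (-0.75). Aggrecan (Acan) was highest in APOE3 in smooth muscle-like cells, at 39.7 CPM against 15.03 and 20.4 CPM in APOE2 and APOE4, past the fold in both ratios to APOE3. Over the 12 proteoglycan genes and partners, 1 was past the fold upward and 2 downward of 8 tested in APOE2 to APOE3 in these cells, and 3 upward and 2 downward of 9 in APOE4 to APOE3. Comp, a substrate of ADAMTS12, was at 10.1, 32.0 and 8.93 CPM in smooth muscle-like cells, past the fold downward in both ratios to APOE3. It was the downward gene among 11 collagen and other substrate genes in each of these comparisons. Thbs1 was past the fold upward in APOE2 to APOE3 and downward in APOE4 to APOE2. In fibroblast-like cells Thbs1 was upward in both ratios to APOE3. Downward there were Col1a2 and Thbs2 in APOE2 to APOE3, and Comp and Nid2 in APOE4 to APOE3. In APOE4 to APOE2 Col3a1, Comp, Nid2 and Thbs1 were downward.

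Timp3, which encodes the main inhibitor of these proteases, was at 627, 655 and 664 CPM in smooth muscle-like cells and at 914, 1314 and 1314 CPM in fibroblast-like cells of APOE2, APOE3 and APOE4, with no ratio past the fold. Among the 10 inhibitors, activators and clearance genes Timp1 had the widest difference in fibroblast-like cells, at 861, 162 and 153 CPM, and stood at 49.9, 33.2 and 23.7 CPM in smooth muscle-like cells. Of 9 tested in smooth muscle-like cells, Timp1 and Timp4 were past the fold upward in APOE2 to APOE3 and Pcsk5, a proprotein convertase, downward, and 0 passed in APOE4 to APOE3. Lrp1, the receptor that takes up several ADAMTS proteases, stood at 124, 151 and 137 CPM there, under the fold.

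Across the 23 clusters the likeness of the members by level is described by Pearson's r of log2(CPM + 1). No test was made, since clusters share libraries and depth. Adamts5 and Adamts12 had the highest r (0.91), then Adamts2 and Adamts5 (0.88), Adamts2 and Adamts12 (0.82), and Adamts1 and Adamts9 (0.81). Adamts4 and Adamtsl1 were at 0.69, and Adamts1 and Adamtsl1 at 0.08. Adamts1 and Adamts5, neighbours on chromosome 16, had an r of 0.61. Among 9524 other genes with enough UMIs, the nearest to each member were Tcaf1, Ston1 and Arhgef12 for Adamts1 (0.95, 0.94 and 0.94) and Fam135a, Fzd6 and Ccdc85a for Adamts9 (0.90, 0.90 and 0.89). For Adamts4 they were Stk32a, Tbx3 and Gxylt2 (0.90, 0.89 and 0.88), and for Adamts5 Pcsk6, Tnxb and C1qtnf1 (0.95, 0.93 and 0.93). Pcsk6, a proprotein convertase, stood at 545 CPM in C20 against 57.3 CPM in C2. For Adamts2 they were Plpp3, C1qtnf7 and Prrx1 (0.95, 0.95 and 0.94), for Adamts12 Slc4a4, Il17rd and Col4a4 (0.96, 0.95 and 0.94) and for Adamtsl1 Tshz2, Shc2 and Negr1 (0.92, 0.91 and 0.90). Taken over 62 values, each of a cluster in a library, the 3 nearest genes were the same for 2 members, Adamts5 and Adamtsl1, and changed for 5. Adamts9 then kept none of its nearest genes, Adamts1 kept Tcaf1 alone and Adamts4 kept Stk32a alone.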

How the data were processed

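Single-cell RNA-seq libraries were made by droplet capture (10x Genomics Chromium) from aortic cells pooled by genotype, 1 library for each of 3 genotypes. The deposited files held raw UMI counts per gene and barcode, made by the authors with Cell Ranger (version 7.0.1 in the matrix header) on mm10, with barcodes already called as cells and no further filter. The 7 genes and all lists were chosen with earlier results of these data known.

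Cells with at least 200 genes and under 20% mitochondrial UMIs were kept. After the study's methods, they were normalised with sctransform 0.4.2 and integrated by canonical correlation in Seurat 5.3.0 (R 4.3.3), with 3000 variable features, 30 components and Louvain resolution 0.8. The 11 Adamts genes among the features were taken out first. Clusters were named from marker lists when they had at least 3 raised markers of a type. Smooth muscle-like clusters kept at least 8 of 10 markers, with fewer than 3 raised markers of another type and no low depth (the limit, relative to the median of their own library, lay between the 0.268 of C9 and the 0.429 of C7). A name was refused where the 10 leading genes held more markers of another type than of its own. Scrublet (scanpy 1.11.5) called 1, 0 and 8 doublets in APOE2, APOE3 and APOE4, too few to be taken as working, so doublets were kept, and leaving out the 1157, 391 and 592 highest scores was an alternative.

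For each class and library the UMIs of a gene were added up and divided by all UMIs, giving CPM with exact Poisson intervals. Library ratios had exact conditional binomial intervals and shares of cells Clopper-Pearson intervals (scipy 1.17.1, numpy 2.4.6, pandas 2.3.3, Python 3.11.15; figures with matplotlib 3.10.9). Ratios needed at least 50 UMIs in both libraries together and 30 cells in each. Depth per library was 168310501, 125105151 and 124926887 UMIs. UMI counts come from the 3′ ends of transcripts, and the counting does not correct for capture differences between genes. With 1 library per genotype no p-value was computed. On simulated counts for smooth muscle-like APOE4 to APOE3 (14221 genes), 95.4% of intervals held the true ratio and 200 of 200 genes changed 2-fold were past the fold. For fibroblast-like APOE2 to APOE3 (12356 genes) the values were 95.5% and 199 of 200. The counts were drawn with the same Poisson error that the intervals assume. The simulation therefore checks the calculation and cannot show variation between pools of mice. The changed genes were drawn from those expected well above the limit of 50 UMIs, so genes as rare as Adamts4 were not covered.

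Genes named in the text were the 7 genes, the 3 genes most alike to each across clusters (at least 20 CPM in 1 cluster and 500 UMIs in all), and genes of the lists of other family genes, substrates, inhibitors and immediate early genes. Junb and Ier3, and the list genes printed with values, were picked from those lists after their values were seen. Alternatives changed the cell filters, cluster resolution, doublet scores, the way cells were assigned to classes, the averaging and the scaling. The alternatives on single clusters were chosen after seeing the data. Protein sequences were not used here.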

Additional observations from a re-analysis of the deposited data

Results flagged for a closer look

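Several genes had library ratios of opposite direction in smooth muscle-like and fibroblast-like cells. With 1 library per genotype these differences between cell classes were not tested. In log2 ratios, Adamts1 in APOE2 to APOE3 was -0.24 in smooth muscle-like and 0.40 in fibroblast-like cells. Adamts2 in APOE4 to APOE2 was -0.21 and 0.21. Adamts5 was 0.26 and -0.19 in APOE2 to APOE3 and 0.14 and -0.47 in APOE4 to APOE3. Adamts12 in APOE4 to APOE2 was -0.44 and 0.17. Adamtsl1 was opposite in all 3 comparisons, with 0.55 in smooth muscle-like and -1.01 in fibroblast-like cells for APOE2 to APOE3, 0.46 and -0.34 for APOE4 to APOE3, and -0.09 and 0.67 for APOE4 to APOE2. These make up 8 of 21 pairs of a gene and a comparison, each with both intervals leaving out 0. The share of all genes with opposite directions by that rule was not taken, so the count is not read as particular to these genes. The 3 comparisons also share libraries. The fibroblast-like Adamts5 ratio of APOE2 to APOE3 turned to 0.058 by mean CPM and was 0.33 in C2 alone. Most Adamtsl1 of the smooth muscle-like cells lay in C13, which was 2.25%, 1.81% and 2.59% of APOE2, APOE3 and APOE4 cells. Within C13 the Adamtsl1 ratios were -0.03 for APOE2 to APOE3 and -0.30 for APOE4 to APOE3, not opposite in sign to fibroblast-like cells. The smooth muscle-like -0.09 for APOE4 to APOE2 became 0.026 when scaled to the median gene and 0.24 without C0.

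The fibroblast-like clusters also differed from each other in direction, which was likewise not tested. Adamts5 was 0.33 in C2 and -0.78 in C20 for APOE2 to APOE3, and -0.59 and 0.36 for APOE4 to APOE2. Adamtsl1 was -0.43 in C2 and 0.42 in C20 for APOE4 to APOE3.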

How the results depend on the processing

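Of 10 ratios past the fold among the 7 genes in both classes, 10 kept the call under other resolutions, stricter cell filters and scaling to the median gene, 9 with the highest Scrublet scores left out, 7 with cells assigned one by one, 6 with the mean of each cell's CPM and 4 in cells under the median immediate early share, with the sign kept in each. Ratios that changed sign were Adamts5 in fibroblast-like cells, APOE2 to APOE3, at 0.058 by mean CPM and 0.33 in C2 alone, and APOE4 to APOE2, at 0.10 under the immediate early median. Adamtsl1 in smooth muscle-like cells changed sign in APOE4 to APOE2, at 0.026 when scaled and 0.24 without C0, and in APOE4 to APOE3, at -0.10 under the immediate early median. Counts past the fold (2, 2 and 2 in smooth muscle-like and 2, 1 and 1 in fibroblast-like cells, in the order APOE2 to APOE3, APOE4 to APOE3, APOE4 to APOE2) moved as follows. Without the highest Scrublet scores they were 4 in smooth muscle-like APOE2 to APOE3 and 0 in fibroblast-like APOE4 to APOE3. By cell they were 4 in smooth muscle-like APOE2 to APOE3, 4 in APOE4 to APOE2 and 0 in fibroblast-like APOE4 to APOE2. By mean CPM they were 1 in smooth muscle-like APOE2 to APOE3 and 0 in both fibroblast-like comparisons with APOE4. Under the immediate early median they were 1, 1 and 1 in smooth muscle-like cells, and 1 in APOE2 to APOE3 and 2 in APOE4 to APOE2 in fibroblast-like cells. C2 alone gave 2 in APOE4 to APOE2, where 12.7% of all genes tested were past the fold. For the other alternatives the share of all genes was not taken. Their counts are therefore not read as more or fewer than a background. The median ratios in smooth muscle-like cells moved to 0.39 (APOE4 to APOE3) and -0.23 (APOE4 to APOE2) by cell, to 0.35, 0.20 and -0.20 by mean CPM, and to 0.55 (APOE4 to APOE3) and -0.0043 (APOE4 to APOE2) when scaled. They were 0.23 (APOE2 to APOE3) and 0.15 (APOE4 to APOE3) under the immediate early median, 0.37 and 0.57 without C0, and, for APOE4 to APOE3, 0.54 with C4, C5 and C7 added and 0.55 without C13. In fibroblast-like cells the medians moved to -0.30 (APOE2 to APOE3) and 0.23 (APOE4 to APOE2) by cell, 0.19 (APOE4 to APOE2) under the immediate early median and 0.24 (APOE2 to APOE3) in C2 alone. The causes were not tested. Other median ratios and counts, 49 and 52 values, stayed near the main value. Depth limits Adamts4 (526 UMIs in all), Adamts12 in smooth muscle-like cells and all endothelial-like values. No paired analysis was possible because each genotype was 1 library.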

Other observations

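Some values were also taken outside the compared classes. In the unnamed cluster C17, led by Spp1, Lcn2 and Cxcl5 and made up of 237 APOE2, 30 APOE3 and 31 APOE4 cells, Adamts4 stood at 6.26 CPM from 46 UMIs, of which 43 came from APOE2. Adamts1 was at 96.3 CPM and Adamtsl1 at 95.8 CPM there. In the shallow unnamed cluster C12, led by fibroblast genes such as Inmt and Fmod, Adamts2 was at 109, 168 and 124 CPM in APOE2, APOE3 and APOE4 and Adamts5 at 109, 75.8 and 63.1 CPM, and in each case the highest and lowest library were those of C2.

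In endothelial-like cells Adamts12 stood at 13.3, 57.7 and 78.9 CPM in APOE2, APOE3 and APOE4, from 18, 11 and 15 UMIs. Adamtsl1 stood there at 138, 131 and 36.8 CPM from 187, 25 and 7 UMIs. In macrophage-like cells Adamts1 was at 20.4, 31.5 and 62.8 CPM, and for each 1000 Myh11 UMIs at 42.8, 42.2 and 87.8 UMIs. Over the libraries together that ratio was close to the one of smooth muscle-like cells, as given above. Adamts1 was highest in APOE4 in smooth muscle-like cells as well. Whether the macrophage-like UMIs were stray RNA was not tested.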
